A study of Arabidopsis thaliana with 6 samples.

Results

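The genes described here are 245 annotated long non-coding RNA (lncRNA) genes of Arabidopsis thaliana, 243 of them typed lncRNA and 2 typed antisense_RNA in the reference annotation. They were taken from 3552 genes of these types, in a table of 39351 features, by a floor of at least 1 FPKM (fragments per kilobase of transcript, scaled to library size) in both Input libraries, with 7 named genes left out of the choice. The genes were thus chosen by their Input levels, so Input values are given as a description and carry no test. The 2 genes just inside the floor were AT1G09913, at 1.17 and 1.00 FPKM in the Input libraries, and AT5G08275, at 1.00 and 1.28 FPKM. Just outside it were AT5G03805 at 0.9996 and 1.34 FPKM and AT4G09695 at 0.997 and 1.30 FPKM.

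NSRa, a nuclear speckle RNA-binding protein, was expressed with an HA tag from its own promoter in the nsra mutant, and this genotype was shared by every library. Seedlings received NAA, a synthetic auxin, for 24 h, for which the labels give both 100 nM and 1 µM, and ages of 10, 14 and 15 days. After UV crosslinking, RNA was recovered with an anti-HA antibody (RIP, 2 libraries), with mouse IgG as the negative immunoprecipitation (Mock, 2 libraries), and from the lysate before precipitation (Input, 2 libraries). The material was depleted of ribosomal RNA and was not selected for poly(A), so that RNA without a poly(A) tail could be read. The sources used here do not say whether the duplicates came from separate cultures, so p-values measure the spread between these libraries. In the main fit that spread was pooled over RIP, Mock and Input for every comparison.

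NSR proteins take part in the control of alternative splicing, and ASCO is a lncRNA known to bind them. LncRNAs are transcripts without a long open reading frame. Those transcribed across a protein-coding gene from the opposite strand are called natural antisense transcripts and can pair with their sense partner, while intergenic ones stand apart from other genes. None of the 245 genes carried a symbol of its own, and none was one of the lncRNAs that the study assayed by RIP-qPCR. Such lncRNAs were typed otherwise in this annotation or were among the 7 genes left out by name.

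By gene span, 189 of the 245 genes were antisense to a protein-coding gene, and 57 of these also overlapped another gene on their own strand. A further 37 were intergenic, and 19 overlapped another gene on the same strand only. Antisense genes had a median exon length of 1423 bp, against 505 bp for intergenic and 305 bp for same-strand genes. A single exon was annotated in 93 of the 245 (38.0%), against 12.9% of the 18630 protein-coding genes that passed the same Input floor. Median GC content was 41.1% in antisense, 37.8% in intergenic and 36.6% in same-strand genes, beside 41.1% in those protein-coding genes.

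The sequences that carry the main results are printed 5′ to 3′ from the TAIR10.1 RefSeq genome, each from the spliced transcript. AT3G06325 and AT3G06355 are shown because they had among the highest RIP levels. They lie on either side of an 18S ribosomal RNA gene on chromosome 3. Capitals mark the part of AT3G06325 that the annotation also gives as MIR5642a, a microRNA gene, and the part of AT3G06355 that is the 5.8S ribosomal RNA gene AT3G41979.
AT3G06325: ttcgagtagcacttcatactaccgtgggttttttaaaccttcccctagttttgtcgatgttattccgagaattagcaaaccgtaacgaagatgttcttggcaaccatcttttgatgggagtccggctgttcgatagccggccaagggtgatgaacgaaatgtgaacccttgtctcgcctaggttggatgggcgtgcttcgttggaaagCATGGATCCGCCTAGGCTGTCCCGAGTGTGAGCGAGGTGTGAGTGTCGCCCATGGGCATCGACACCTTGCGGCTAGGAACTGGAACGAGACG
AT3G06355: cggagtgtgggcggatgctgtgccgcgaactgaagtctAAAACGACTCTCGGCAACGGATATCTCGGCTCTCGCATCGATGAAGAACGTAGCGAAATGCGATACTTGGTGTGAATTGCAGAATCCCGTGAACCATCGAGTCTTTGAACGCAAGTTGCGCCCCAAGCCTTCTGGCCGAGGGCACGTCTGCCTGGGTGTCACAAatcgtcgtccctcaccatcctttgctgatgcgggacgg
AT2G05215 is shown because all of its exon sequence matched the mitochondrial genome. Its longest match covered 1079 bases at 99.9% identity, and the capital marks the 1 base of that match that differed.
AT2G05215: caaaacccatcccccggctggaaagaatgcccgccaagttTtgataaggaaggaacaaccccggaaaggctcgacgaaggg
AT1G79529 and AT5G01775 had the largest RIP over Input differences among the putative targets described below. In AT1G79529, capitals mark bases opposite exons of GAPCP-1, which encodes a plastid glyceraldehyde-3-phosphate dehydrogenase. In AT5G01775 they mark 151 bases of the small nucleolar RNA (snoRNA) gene AT5G01785 and the 38 bases of SNOR77, another snoRNA gene, that fall in its exons, both on the same strand. SnoRNAs guide chemical modification of ribosomal RNA.
AT1G79529: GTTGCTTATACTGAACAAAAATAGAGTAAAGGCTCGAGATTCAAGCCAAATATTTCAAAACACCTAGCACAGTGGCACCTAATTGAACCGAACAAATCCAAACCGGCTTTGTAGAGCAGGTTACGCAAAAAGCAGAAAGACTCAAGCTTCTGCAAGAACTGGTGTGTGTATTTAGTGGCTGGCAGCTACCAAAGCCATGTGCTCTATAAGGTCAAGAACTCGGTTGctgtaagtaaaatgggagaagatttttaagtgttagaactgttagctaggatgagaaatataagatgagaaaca
AT5G01775: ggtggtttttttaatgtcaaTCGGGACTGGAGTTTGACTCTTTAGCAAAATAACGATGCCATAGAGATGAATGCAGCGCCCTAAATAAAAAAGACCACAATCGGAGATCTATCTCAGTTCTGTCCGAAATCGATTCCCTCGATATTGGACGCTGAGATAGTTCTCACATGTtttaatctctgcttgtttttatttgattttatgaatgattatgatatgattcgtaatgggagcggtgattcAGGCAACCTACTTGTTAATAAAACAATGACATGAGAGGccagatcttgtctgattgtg
AT1G06587 was the 1 intergenic gene called higher in RIP, and is given whole. AT4G06980, given whole, is one of the genes called lower without any RIP read, and its capitals mark bases opposite exons of AT4G21065.
AT1G06587: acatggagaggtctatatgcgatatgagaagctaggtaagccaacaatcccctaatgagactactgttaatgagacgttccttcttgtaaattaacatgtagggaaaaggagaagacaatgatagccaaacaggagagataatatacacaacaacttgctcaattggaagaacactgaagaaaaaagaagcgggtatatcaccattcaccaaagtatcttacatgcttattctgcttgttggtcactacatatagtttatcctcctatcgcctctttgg
AT4G06980: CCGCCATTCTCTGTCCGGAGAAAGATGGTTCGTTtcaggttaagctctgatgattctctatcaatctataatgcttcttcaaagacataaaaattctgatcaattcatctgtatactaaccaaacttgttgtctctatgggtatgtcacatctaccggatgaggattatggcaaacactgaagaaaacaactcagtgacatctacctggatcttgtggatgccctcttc

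Depth differed widely between groups. Whole reads recovered from the table numbered 1599136 and 977230 for RIP, 197923 and 154149 in Mock, and 27494964 and 25274634 in Input. Of the 245 genes, 143 and 145 were above 0 in RIP and 3 and 24 in Mock, while all 245 did in both Input libraries by the rule. In both Mock libraries, 220 genes (89.8%) were at 0, against 66.4% of the protein-coding genes. These sets were not matched for depth. The protein-coding genes had a median Input of 11.1 FPKM and a median exon length of 1771 bp, against 2.56 FPKM and 1051 bp. The median of the 245 genes would have given 4.73 and 2.89 RIP reads at its Input share, and 0.585 and 0.456 Mock reads. Fewer than 1 read was expected for 156 and 172 of the 245 genes in Mock.

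The 245 genes took 0.464% and 0.407% of reads in RIP, 0.816% and 1.45% in Mock, and 0.154% and 0.155% in Input. AT3G06325 and AT3G06355 alone held 38.0% and 42.0% of the reads of the 245 genes in RIP, 99.9% and 91.1% in Mock, and 0.775% and 0.605% in Input. Without this pair the share was 0.287% and 0.236% in RIP, 0.000505% and 0.130% in Mock, and 0.153% and 0.154% in Input. The RIP share thus remained above Input without the pair, whereas the Mock share did not.

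RIP was compared with Input to ask which transcripts were enriched with NSRa-HA. A gene was called higher where the log2 fold change on log2(FPKM + 1) was above 2 and the Benjamini-Hochberg adjusted p from limma was under 0.01, and lower below -2. Of the 245 genes, 9 (3.67%) were called higher, where 1.48% of all 19997 features tested were, and 20 (8.16%) were called lower, where 5.78% were. Among the protein-coding genes, 0.590% were higher and 5.58% lower. Without adjustment, 36 genes (14.7%) were higher and 89 (36.3%) lower at p under 0.05, against 9.02% and 24.98% of all features. Their median log2 fold change over Input came to -0.48, beside -0.52 over all features and -0.56 over the protein-coding genes. By position, 6 antisense (3.17%), 1 intergenic (2.70%) and 2 same-strand genes (10.5%) were higher, and 10 (5.29%), 7 (18.9%) and 3 (15.8%) were lower. With quantile normalization the all-feature median became -0.0017 and left 8 higher and none lower by limma, with 20 lower at an unadjusted p under 0.05. Leaving out libraries changed the count called higher. Without Input replicate 1, and likewise without Input replicate 2, 1 gene was called higher, while 19 were without RIP replicate 2.

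**Figure D1:**
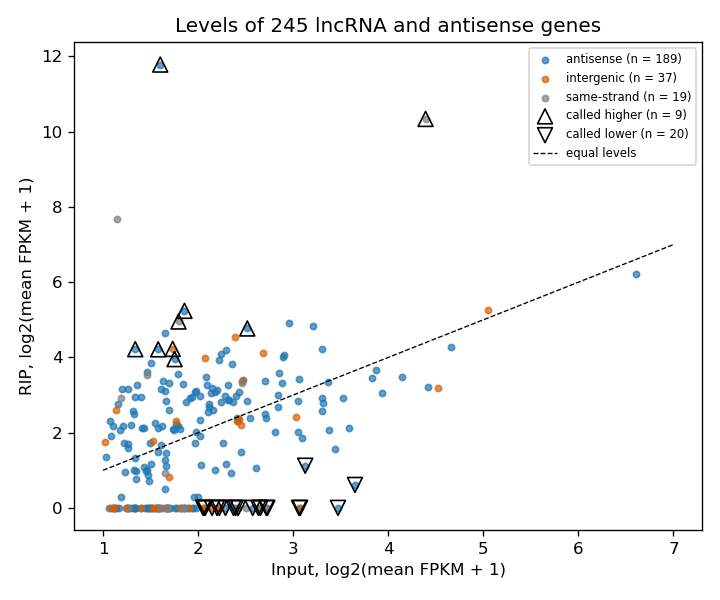
Mean level of each of the 245 genes in RIP (vertical) and Input (horizontal), as log2(mean FPKM + 1), coloured by position. Triangles mark the 9 genes called higher and the 20 called lower, and the dashed line marks equal levels.

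A comparison free of the fold threshold gave the share of genes whose RIP values all lay above, or all below, both Input values. RIP lay above Input for 66 genes (26.9%), against 20.8% of the protein-coding genes and 22.7% of all features tested. It lay below Input for 112 genes (45.7%), against 51.9% and 50.2%. The antisense genes lay above in 58 of 189 cases (30.7%) and below in 76 (40.2%), while the intergenic genes lay above in 5 of 37 (13.5%) and below in 23 (62.2%). A gene at 0 in both RIP libraries lay below by the Input floor of the rule. Such genes were 78 of the 112, 45 of the 76 antisense and 21 of the 23 intergenic ones.

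Genes without a RIP read were shorter. In both RIP libraries 78 genes were at 0, with a median exon length of 426 bp, and 121 genes were detected in both, with a median of 2007 bp. Of the intergenic genes, 21 of 37 were at 0 in both RIP libraries, against 45 of 189 antisense genes. For 120 genes the Input share gave at least 3 expected reads in both RIP libraries, a limit that uses no RIP value. Among these, RIP lay above Input for 40.0% and below for 30.8%, against 21.3% and 51.7% of the 17191 protein-coding genes under the same limit. The limit is only a minimum and did not match the lncRNA genes to the protein-coding genes for depth. Before it was applied, median Input was 2.56 FPKM in the lncRNA genes and 11.1 FPKM in the protein-coding genes. Whether level contributed to the contrast, with or without the limit, was not tested. Of the 109 antisense genes under this limit 44 lay above and 34 below, and of the 10 intergenic genes 3 lay above and 3 below. The difference between the position classes was not tested. These shares are descriptions, and the list was not tested as a set.

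**Figure D2:**
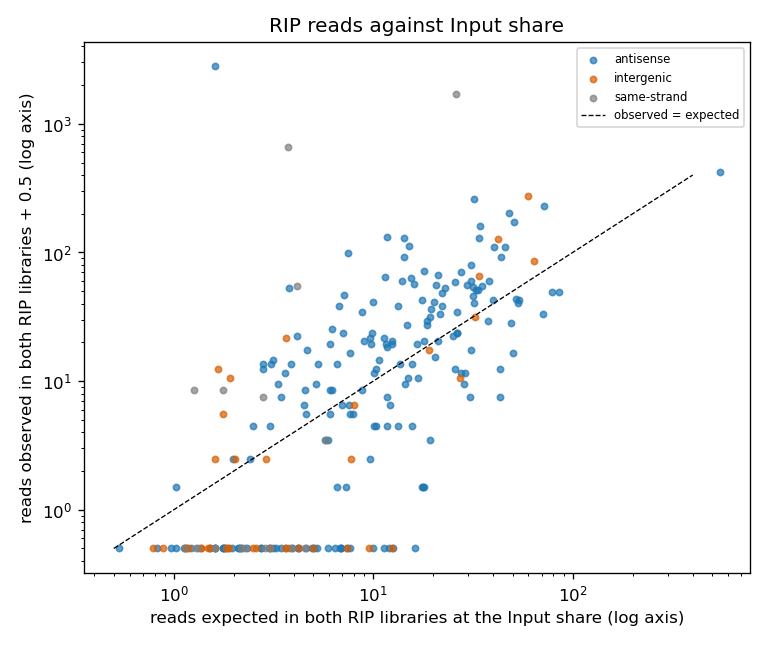
Reads observed in both RIP libraries together, plus 0.5, against the reads expected at the Input share, both on log axes, 1 point per gene. Genes at the bottom had no RIP read, and 120 of the 245 had at least 3 expected reads in both RIP libraries.

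The largest difference was that of AT3G06325, a 308 bp single-exon gene (chromosome 3, 14196558 to 14196865, plus strand) antisense to AT3G41762. It had 3480 and 3578 FPKM in RIP, 7808 and 10531 FPKM in Mock, and 1.89 and 2.18 FPKM in Input. Both pull-downs thus stood far above Input, and Mock stood above RIP. RIP exceeded Input by a log2 fold change of 10.18 ± 0.25 (SE, adjusted p = 8.7e-05, limma). AT3G06355 (chromosome 3, 14199575 to 14200076, plus strand), which contains the 5.8S gene, had 1378 and 1213 FPKM in RIP, 11464 and 19901 FPKM in Mock, and 22.7 and 17.3 FPKM in Input. Its log2 fold change was 5.96 ± 0.35 for RIP over Input (adjusted p = 0.00087, limma) and -3.55 ± 0.35 for RIP over Mock (adjusted p = 0.0022, limma). The 18S ribosomal RNA gene AT3G41768 between them had 255 and 232 FPKM in RIP, 1951 and 2745 FPKM in Mock, and 1.55 and 1.25 FPKM in Input. Near-identical copies of both transcripts lie elsewhere in the nuclear genome, so how their reads were shared between copies is uncertain, and the part of ribosomal RNA in their values was not tested.

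AT2G05215 (chromosome 2, 3334410 to 3335689) had 254 and 156 FPKM in RIP, 0 and 192 FPKM in Mock, and 1.11 and 1.34 FPKM in Input. RIP lay above Input in every library, but the Mock libraries disagreed. The log2 fold change of 6.49 ± 2.71 (SE) was not called in the fit on all libraries (adjusted p = 0.20, limma), and was called where only RIP and Input were fitted (adjusted p = 0.0025, limma). Since its sequence matches the mitochondrial genome throughout, mitochondrial and nuclear reads cannot be told apart.

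The study's criteria for putative targets also ask for a difference from Mock and for a minimum TPM in RIP. The study's methods name pairwise DESeq2 comparisons of read counts, whereas limma on log2(FPKM + 1) over all 6 libraries was used here. Here CPM, which is not scaled to transcript length, stood in for TPM. With called higher over Input, called higher over Mock and a library-scaled count (CPM) of at least 2 in each RIP library, 7 of the 245 genes were putative targets, where 0.923% of 19832 annotated features were. They were the 7 genes called higher over Input other than the pair beside the ribosomal gene, and each was at 0 in both Mock libraries. Those zeros, at the low depth of Mock, added no spread to the pooled error. The SE and p-values of these genes over Input therefore rest in part on Mock. No target was called in limma without either 1 of the Input libraries or with only the 2 groups compared in each fit, 4 were without Mock replicate 1, and 14 without RIP replicate 2. A pseudocount of 5 left 2 targets, quantile normalization 3, and voom on the recovered reads none.

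**Figure D3:**
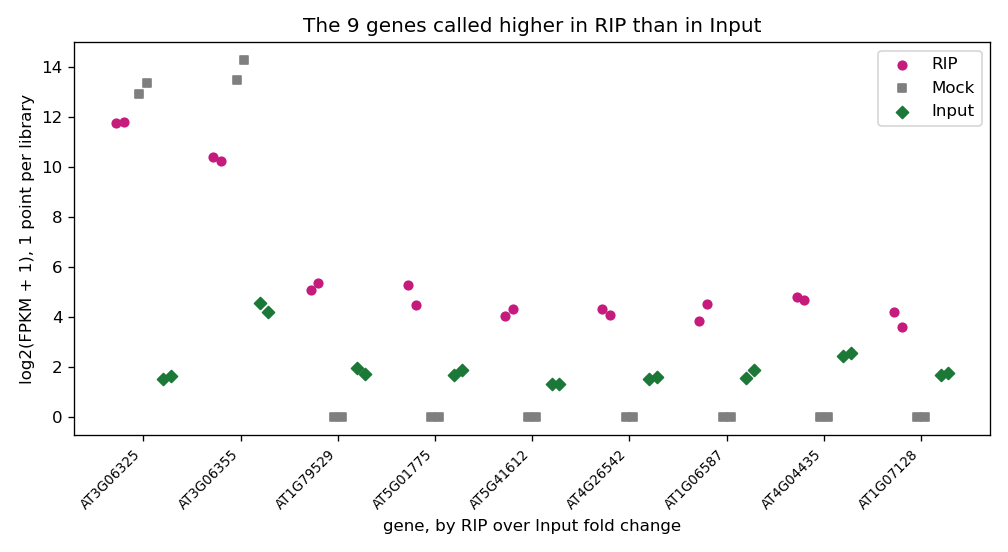
Level in each library, as log2(FPKM + 1), of the 9 genes called higher in RIP than in Input, with RIP left, Mock in the middle and Input right. The first 2 genes are above Input in Mock as well, and the other 7 are at 0 in both Mock libraries.

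AT1G79529 (chromosome 1, 29915662 to 29916410), antisense to GAPCP-1, had 33.4 and 40.1 FPKM in RIP and 2.92 and 2.33 FPKM in Input. The log2 fold change was 3.38 ± 0.20 (SE, adjusted p = 0.00084, limma), and with RIP and Input alone in the fit adjusted p was 0.0040 (limma). GAPCP-1 itself stood at 16.9 and 9.07 FPKM in RIP and 55.0 and 54.9 FPKM in Input, so the antisense RNA was the more abundant of the pair in RIP and the less abundant in Input. AT5G01775 (chromosome 5, 3343190 to 3343998), the snoRNA host, had 38.2 and 21.9 FPKM in RIP and 2.22 and 2.72 FPKM in Input, a log2 fold change of 3.11 ± 0.32 (adjusted p = 0.0053, limma). Of the snoRNA genes inside it, AT5G01785 had 128 and 40.7 FPKM (31 and 6 reads) in RIP. It had 0 FPKM in both Mock libraries and 3.61 and 0.786 FPKM (15 and 3 reads) in Input. SNOR77 had 118 and 61.6 FPKM (25 and 8 reads) in RIP and 0 and 439 FPKM (0 and 9 reads) in Mock. In Input it had 5.74 and 8.63 FPKM (21 and 29 reads). Whether these reads were also counted in AT5G01775 is uncertain, and their part in its values was not tested.

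AT5G41612 (chromosome 5, 16638352 to 16641307), antisense to CHX18, a putative sodium/proton antiporter gene, had 15.9 and 19.4 FPKM in RIP and 1.56 and 1.50 FPKM in Input. Its log2 fold change was 2.87 ± 0.15 (SE, adjusted p = 0.00059, limma), while CHX18 had 0.760 and 3.11 FPKM in RIP and 1.44 and 1.53 FPKM in Input. AT4G26542, whose whole transcript lies opposite AT4G26540, had 19.2 and 15.9 FPKM in RIP and 1.91 and 2.08 FPKM in Input, a log2 fold change of 2.63 ± 0.15 (adjusted p = 0.00085, limma). Its partner had 36.2 and 21.4 FPKM in RIP and 20.4 and 19.6 FPKM in Input.

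The remaining 3 targets had the smallest fold changes. AT4G04435, antisense to AT4G03140, had 41 and 23 reads in RIP and 115 and 118 in Input, or 27.4 and 25.1 FPKM in RIP and 4.47 and 4.99 FPKM in Input, and its log2 fold change was 2.25 ± 0.17 (SE). AT1G07128, antisense to the telomere-protection gene STN1, had 33 and 13 reads in RIP, or 17.7 and 11.4 FPKM, against 2.27 and 2.47 FPKM in Input, with a log2 fold change of 2.17 ± 0.24. The intergenic AT1G06587 had 6 reads in each RIP library, or 13.4 and 22.0 FPKM, against 1.96 and 2.69 FPKM in Input, with a log2 fold change of 2.46 ± 0.29. With RIP and Input alone in the fit, AT1G06587, AT1G07128 and AT5G01775 were no longer called (adjusted p = 0.025, 0.026 and 0.016, limma).

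A Mock count of 0 sets only a weak bound. Against a floor of 3 reads in each Mock library, RIP was at least 3.01-fold higher for AT5G41612, 2.81-fold for AT4G26542, 1.42-fold for AT4G04435, 1.19-fold for AT1G79529 and 1.14-fold for AT5G01775. For AT1G07128 and AT1G06587 the RIP mean lay under that floor, so a difference from Mock was not detectable at this depth.

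Of the 20 genes called lower in RIP, 18 had no read in either RIP library. The median exon length of the 20 was 426.5 bp. For the 18, the fitted fold change restates the Input level and the pseudocount and is no measure of the size of a fall, and with a pseudocount of 0.1 the count called lower was 75 and with 5 it was 0 (limma, 91 before adjustment). AT4G06980, antisense to AT4G21065, had 0 FPKM in both RIP libraries and 10.2 and 10.0 FPKM in Input. AT2G08345, antisense to AtIPCS3, had 1 and 0 reads in RIP, against 174 in Input replicate 1. AT1G13448, antisense to the transcription factor gene GT-1, had no RIP read and 7.62 and 7.22 FPKM in Input. The intergenic AT1G07367 was at 0 in RIP and at 6.55 and 8.15 FPKM in Input. AT1G04313 and AT1G08697 were at 0 in RIP and at 4.89 to 6.38 FPKM in Input. At the Input share these 20 genes would have given 1.10 to 11.97 reads in RIP replicate 1 and 0.673 to 7.32 in replicate 2, and only 6 of them at least 3 reads in both. For the other 14, fewer than 3 reads were expected in at least 1 RIP library.

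RIP against Mock asked which transcripts depended on the HA antibody. With a log2 fold change of at least 1 and an adjusted p under 0.01 in limma, 64 of the 245 genes (26.1%) were higher in RIP, where 34.3% of all features were, and 1, AT3G06355, was lower, where 0.18% were. Antisense genes made up 56 of the 64, and these were 29.6% of the antisense genes, also under the share of all features. Of the intergenic genes 18.9% were higher, and of the same-strand genes 5.26%. The median log2 fold change of the 245 genes was 1.26, beside 2.13 over all features. All 64 had no read in either Mock library, and for 25 of them the RIP mean exceeded the 3-read Mock floor. The largest such ratio was that of the intergenic AT2G24755, a 7249 bp gene with 14.6 and 14.8 FPKM in RIP and 3.15 and 3.28 FPKM in Input. Its RIP mean was 6.16 times that floor. It was named after its values were seen. After quantile normalization the all-feature median became -0.17 and that of the 245 genes -0.75, with 4 genes higher (1.63%, against 1.14% of all features) and 75 lower (30.6%, against 8.93%), so the direction of this comparison depends on the scaling. With only RIP and Mock fitted, limma called no gene, and 82 genes were higher before adjustment at p under 0.05. The count of 64 became 29 and 30 without Input replicate 1 and without Input replicate 2, 34 without Mock replicate 1, and 109 and 113 without RIP replicate 1 and without RIP replicate 2, and 6 genes were lower without Mock replicate 1.

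Mock against Input gave the background of the pull-down. Called at the thresholds used for Input, 2 of the 245 genes were higher in Mock, where 0.715% of features were, and 65 (26.5%) were lower, where 41% were. All 65 had no read in either Mock library, so these calls and the median below restate the Input level and the pseudocount, and 158 and 3 were lower with pseudocounts of 0.1 and 5. The 2 were AT3G06325, with a log2 fold change of 11.55 ± 0.25 (SE), and AT3G06355, with 9.50 ± 0.35. The median log2 fold change was -1.74, beside -2.70 over all features, and under quantile normalization these became 1.31 and 0.12. Without Mock replicate 1, 9 genes were higher and 40 lower, and 32 and 26 were lower without Input replicate 1 and without Input replicate 2. The Mock libraries differed from each other. Mock replicate 2 gave reads for AT1G06683, which stood at 258 FPKM there, 0 FPKM in Mock replicate 1 and both RIP libraries, and 4.78 and 4.57 FPKM in Input. In Mock replicate 2, 1 read was worth 6.49 CPM, so a high FPKM there can rest on few reads.

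Among the genes with the highest Input level, AT1G25098, antisense to AT1G25097, had 78.2 and 68.2 FPKM in RIP, 0 and 38.5 FPKM in Mock, and 97.0 and 96.5 FPKM in Input. All of its exon sequence matches elsewhere in the nuclear genome. The intergenic AT4G38932 had 59.2 and 15.9 FPKM in RIP and 32.6 and 31.7 FPKM in Input. AT2G26355, antisense to AT2G26360, had 25.7 and 11.1 FPKM in RIP and 24.1 and 24.6 FPKM in Input. The intergenic AT2G24592 had 7.77 and 8.47 FPKM in RIP and 23.0 and 20.9 FPKM in Input, and AT4G01593, antisense to AT4G01595, had 13.4 and 3.03 FPKM in RIP and 19.7 and 21.0 FPKM in Input. RIP lay below Input for AT2G24592 and AT4G01593. Of the intergenic genes, AT1G60505 had 16.4 and 16.3 FPKM in RIP and 5.60 and 5.27 FPKM in Input. Its log2 fold change of 1.43 (adjusted p = 0.0055, limma) was under the fold threshold.

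Each of the 189 antisense genes had a sense partner in the table, 187 distinct genes in all. The antisense RNA was the more abundant per length in both Input libraries for 82 of the 189. For the 158 pairs with a read in each RIP library, it was above its partner in both RIP libraries for 66 pairs and below for 68, and in both Input libraries for 65 and 88 of the same pairs. Across the 144 pairs in which both genes were tested, Spearman's rho between the log2 RIP over Input values was 0.217, given as a description over genes that share libraries. Of the sense partners in these 144 pairs 1 was called higher and 11 lower, where 1.48% and 5.78% of all features tested were. The 11 had 0 FPKM in both RIP libraries, so their fold changes restate the Input level and the pseudocount. The higher one, AT3G56410, is the partner of AT3G56408, whose own log2 fold change was 0.42. Of the 6 antisense genes called higher, AT3G06325 has a partner below the level tested, and the partners of the other 5 were not called higher. Counting was strand-specific, as the study states, so reads of the pair were separated by strand.

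**Figure D4:**
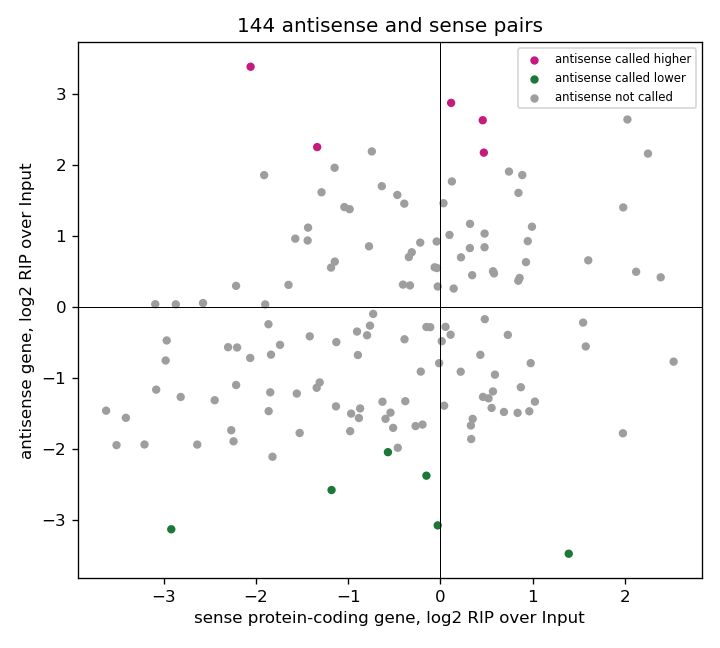
Log2 RIP over Input of 144 antisense genes (vertical) against that of their sense protein-coding partners (horizontal), coloured by the call of the antisense gene. The 5 antisense targets, in pink, lie above 2 on the vertical axis and on both sides of 0 on the horizontal axis.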

How the data were processed

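The authors mapped reads of 75 bp with STAR and counted them per gene by strand in Union mode with summarizeOverlaps, and the deposited values are FPKM, with TAIR10 given as the build in the submitters' notes. The authors' tool versions are not given in the sources used here. FPKM times exon length in TAIR10.1 RefSeq gave whole reads, within 0.05 reads, for 99.5% of the 1470 values of these genes, and depth and floors come from these recovered reads and cover counting error only. Features with at least 1 FPKM in 2 libraries were tested on log2(FPKM + 1) with limma 3.58.1 in R 4.3.3, with group means over all 6 libraries, a trended empirical Bayes prior and Benjamini-Hochberg correction. Union mode is meant to drop reads that overlap 2 genes on 1 strand. AT5G01785, which lies within the exons of AT5G01775 on the same strand, nonetheless had 31 and 6 RIP reads. How reads shared by such genes were counted is therefore uncertain. The treatment of multiply mapped reads is not given in the sources used here. Matches elsewhere in the genome were found with blastn 2.17.0 at 95% identity or more. Genes named are those called higher over Input, the leading ones called lower, those called higher in Mock, those with the highest Input level in each class, and others marked where they appear. AT2G05215, AT1G60505 and AT1G06683 were chosen after their values were seen. The members and lists were chosen with earlier results of these data known. Scripts were tested on simulated data.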

Additional observations from a re-analysis of the deposited data

How the results depend on the processing

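For RIP against Input, the main counts were 9 higher and 20 lower. A pseudocount of 5 gave 4 and 0, a pseudocount of 0.1 gave 75 lower, a filter of at least 5 FPKM gave 5 lower, quantile normalization gave 0 lower, and voom on the recovered reads gave 1 and 0 (10 and 5 at an unadjusted p under 0.05), the 1 being AT3G06325. The median was -1.38 and -0.17 with pseudocounts of 0.1 and 5, 0.59 with the 5 FPKM filter, which kept 86 genes, and 0.29 with quantile normalization. For RIP against Mock, where 64 were higher and 1 lower, a pseudocount of 5 gave 38 higher, quantile normalization 4 and 75, voom 0 and 75 (58 and 90 unadjusted), the fit on 2 groups 0 and 0 (82 and 2 unadjusted), and the 5 FPKM filter 2 lower. The median was 3.05 and 0.45 with pseudocounts of 0.1 and 5, 2.85 with the 5 FPKM filter, -0.75 with quantile normalization and -0.60 with voom. For Mock against Input, where 65 were lower, the count was 158 and 3 with pseudocounts of 0.1 and 5, 41 with the 5 FPKM filter, 0 with quantile normalization (5 unadjusted) and 2 with voom, and the median was -4.55, -0.55, -2.39, 1.31 and 0.086 in the same order, and -1.59 with median-of-ratios scaling. The 7 putative targets became 11 and 2 with pseudocounts of 0.1 and 5, 3 with quantile normalization, and 0 with voom and with 2 groups. The cause was not tested. Leaving out each library in turn gave 1 to 19 higher, 17 to 28 lower and medians of -0.78 to -0.48 for RIP against Input, 29 to 113 higher, 0 to 6 lower and medians of 1.03 to 1.46 for RIP against Mock, 2 to 9 higher, 26 to 88 lower and medians of -1.81 to -1.70 for Mock against Input, and 0 to 14 targets. No target was left without Input replicate 1 or without Input replicate 2, 4 were without Mock replicate 1, and 14 without RIP replicate 2. Without AT3G06325, AT3G06355 and AT2G05215, an alternative chosen after seeing the data, 7 were higher than Input, 0 lower than Mock and 0 higher in Mock than Input.

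Deviations of same-numbered libraries correlated at 0.0085 (RIP and Input), 0.012 (RIP and Mock) and -0.0017 (Mock and Input). At the depth of the pull-downs, counting error can hide a shared deviation, so these values cannot decide whether the numbers pair the libraries. The replicate block gave 5 higher than Input, 0 lower than Mock and 3 targets. Counting depth in Mock limits every comparison with it.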
